A study of Mus musculus with 12 samples.

Results

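*Gas5* and 9 further noncoding genes that carry small nucleolar RNAs (snoRNAs) were followed in mouse embryonic testis after gestational exposure to the neonicotinoid thiacloprid (*thia*). The 10 genes were *Gas5*, *Snhg1*, *Snhg3*, *Snhg5*, *Snhg6*, *Snhg8*, *Snhg12*, *Snhg18*, *Snhg20* and *Zfas1*, out of 35976 gene symbols with counts. *Gas5* was chosen by its measured counts in these libraries, since its difference between *thia* and control was already known to run in opposite directions in the first (F1) and the third (F3) generation, and the other 9 were added by name as genes of the same kind. The *thia* and control values of all 10 genes are therefore given as a description without a test. The choice of *Gas5* also rested on its control pools, so its difference between the 2 control groups is a description too. That difference was tested for the other 9 genes only. They were listed with earlier results of these data known, so that test may not be independent of their listing.

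RNA-seq was performed on testes of E15.5 male embryos of the outbred Swiss (RjOrl) strain, with 3 libraries per group and testes of 3 embryos pooled in each library. Pregnant females received 0 or 6 mg/kg/day of *thia* in olive oil by gavage from E6.5 until E15.5, and controls received oil alone. Their embryos are the F1 control and F1 *thia* groups. F3 control and F3 *thia* embryos descended through F1 and F2 males, each mated to unrelated females that had not been treated, so F3 embryos met no *thia* themselves. The paper states that the treatment and breeding were repeated independently and that each assay used males of different litters. The sources do not tie single pools to litters or to either round of treatment. P-values measure only the spread between these pools.

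A snoRNA host gene is transcribed and spliced like a coding gene, and its snoRNAs are trimmed out of the removed introns. C/D box snoRNAs then guide ribose methylation and H/ACA box snoRNAs guide pseudouridylation of ribosomal RNA, so host genes belong to ribosome production together with the ribosomal protein genes. The spliced *Gas5* RNA (growth arrest specific) contains a short reading frame and is degraded by nonsense-mediated decay (NMD) while it is translated, it accumulates when growth or translation stops, and it is also known as an RNA that binds the glucocorticoid receptor.

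All 10 genes were placed with the GENCODE M21 annotation of GRCm38, the assembly also called mm10. *Gas5* lies on the plus strand at chr1:161034422-161038539 and has 10 annotated snoRNA entries, 2 of which (both named *Snord80*) overlap. *Snhg1* (chr19:8723475-8726443) carries 8 entries and *Snhg12* (chr4:132308623-132311024) carries 5, whereas *Zfas1* (chr2:167062934-167065862) carries 3. *Snhg3* (chr4:132348014-132353686) and *Snhg5* (chr9:88521050-88522929) hold 2 each. *Snhg6* (chr1:9941959-9944118), *Snhg8* (chr3:123507552-123508404) and *Snhg18* (chr15:32240565-32244662) hold 1 each, and *Snhg20* (chr11:117076008-117078955) holds 1 small Cajal body RNA. 

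**Figure D1:**
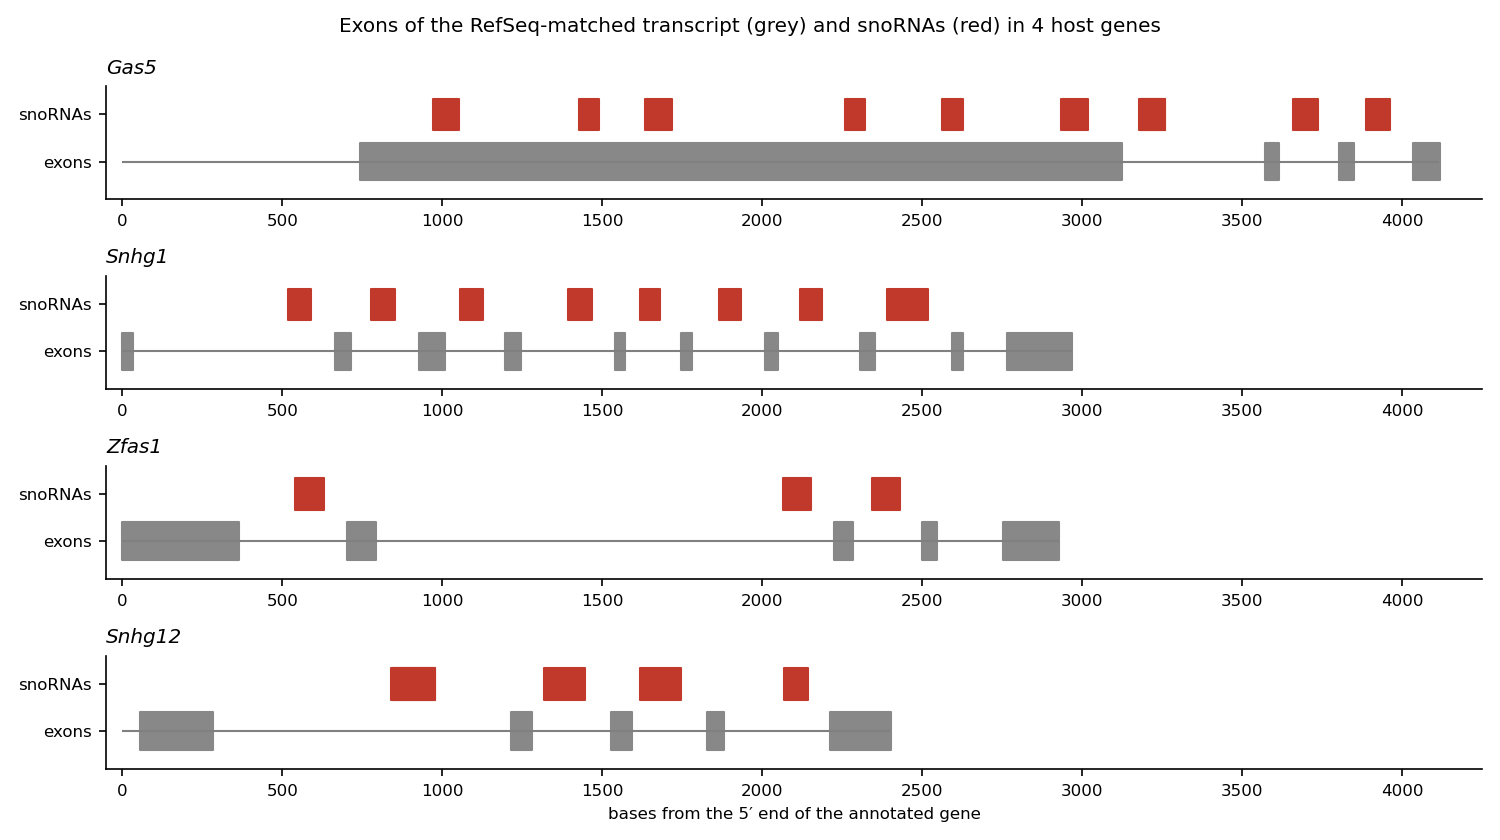
Maps of *Gas5*, *Snhg1*, *Zfas1* and *Snhg12*, with bases from the 5′ end of the annotated gene on the x axis, exons of the transcript matched to RefSeq in grey and snoRNAs in red (overlapping entries merge, so *Gas5* shows 9 blocks for 10 entries). In *Snhg1* every snoRNA lies between exons, whereas 6 of the *Gas5* entries lie inside the first exon of a transcript that keeps its introns.

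The snoRNAs are shown for *Gas5* because it is the gene the results turn on and because its RefSeq-matched transcript, 2556 bases long in 4 exons, holds 6 of them inside an exon. A read from such an exon could come from unspliced as well as spliced *Gas5* RNA. Of the 10 entries, 8 have both a TGATGA C box and a CTGA D box, which are in capitals in these 3 examples from GRCm38.
*Snord47* (chr1:161038082-161038158, plus strand): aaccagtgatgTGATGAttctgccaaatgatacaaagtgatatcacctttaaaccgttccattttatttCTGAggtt
*Snord80* (chr1:161037604-161037680, plus strand): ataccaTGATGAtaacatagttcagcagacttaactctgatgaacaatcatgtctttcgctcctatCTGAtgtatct
*Gm23212* (chr1:161036682-161036741, plus strand): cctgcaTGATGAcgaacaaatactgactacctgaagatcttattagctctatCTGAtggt
Only *Snord47* of these has counts of its own in the files.

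The starts of host genes are of interest because mRNAs of the translation machinery typically begin in a run of pyrimidines. The RefSeq promoter table of GRCm38.p6 held 10 starts for 9 of the genes, and *Snhg6* was not matched. The longest run of C and T that began within 10 bases of the start is in capitals in these windows, which run from 20 bases before the start to base 30 of the transcript. They belong to the 4 genes with the largest differences between the control groups or the longest run.
*Gas5*, upstream start (chr1:161034581-161034630, plus strand): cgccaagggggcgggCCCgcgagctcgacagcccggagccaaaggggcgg
*Gas5*, downstream start (chr1:161035146-161035195, plus strand): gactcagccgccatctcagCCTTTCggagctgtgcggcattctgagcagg
*Snhg8* (chr3:123508307-123508356, minus strand): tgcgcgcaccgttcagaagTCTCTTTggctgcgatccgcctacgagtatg
*Zfas1* (chr2:167062914-167062963, plus strand): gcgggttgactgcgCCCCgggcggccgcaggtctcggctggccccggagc
*Snhg18* (chr15:32244633-32244682, minus strand): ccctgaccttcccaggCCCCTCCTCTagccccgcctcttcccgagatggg
A run of at least 5 was found at 7 of the 10 starts and at 36.7% of 32851 promoters, and one of at least 8 at 3 of the 10 and at 8.84% of all promoters. At 70 starts of ribosomal protein genes the shares were 54.3% and 30%. In the 300 bases from 250 before to 50 after the start, CACGTG, which reads the same on both strands, was in 0 of the 10 and in 7.15% of all promoters, and TGACG on either strand was in 4 of the 10 and in 20.8%.

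Total counts per library ranged from 25081647 to 68996146 with a median of 42665445, so 1 CPM (count per 1000000 counts) stood for 25.1 to 69.0 counts, and the lowest count of any of the 10 genes was 70. CPM values were scaled by TMM over the 12 libraries. F3 *thia* pool 2 stood apart from its group, with a chi-square per degree of freedom of 90.7 and 101 against the other F3 *thia* pools, compared with 17.3 to 42.2 between the other pairs of pools of a group. Markers of germ, Sertoli and Leydig cells were detected in all 12 libraries, as testis requires. All 8 erythroid markers were also detected in every library, at a summed 5222 to 15446 CPM in F1 control, 7865 to 19019 in F1 *thia*, 62009 to 66770 in F3 control and 45149 to 82351 in F3 *thia*. The 8 skeletal muscle markers summed to 582 CPM in F1 *thia* pool 2 and to 40.8 to 240 CPM in the other 11 libraries. In pooled tissue, fewer cells of a type and less RNA per cell cannot be told apart.

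*Gas5* was higher in *thia* than in control testis in F1 and lower in F3. In F1 control pools 1 to 3, *Gas5* was at 55.0, 54.5 and 54.9 CPM. In F1 *thia* pools it was at 95.6, 87.6 and 92.3 CPM, and the groups did not overlap.

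The F3 control pools had the highest *Gas5* levels, at 139, 125 and 158 CPM. The F3 *thia* pools had 99.6, 96.1 and 74.1 CPM, all below every F3 control pool. The F3 *thia* pools thus came to lie close to the F1 *thia* pools, with group means of 89.9 ± 13.8 and 91.8 ± 4.02 CPM (SD, n = 3).

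The log2 fold change of *Gas5* was 0.76 (standard error 0.081) in F1 and −0.65 (standard error 0.14) in F3. As folds, the level in *thia* testis was 1.69 times that of control in F1 and 0.636 times in F3. The difference between both fold changes was −1.39 on the log2 scale (standard error 0.16). Without F1 *thia* pool 2 the F1 value was 0.79, and without F3 *thia* pool 2 the F3 value was −0.70. Leaving out any other pool gave 0.73 to 0.76 in F1 and −0.74 to −0.53 in F3.

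Being apart in both generations in opposite directions was uncommon among all genes. Of the 18229 genes tested in both generations, 72 (0.395%) had all *thia* pools above all control pools in F1 and below them in F3, and 131 (0.719%) showed the reverse. In single generations it was common. In F1, 6.55% of all genes had *thia* above control without overlap, and in F3 13.9% had *thia* below control. *Gas5* was listed for this pattern, so its own place among the 72 is not evidence.

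**Figure D2:**
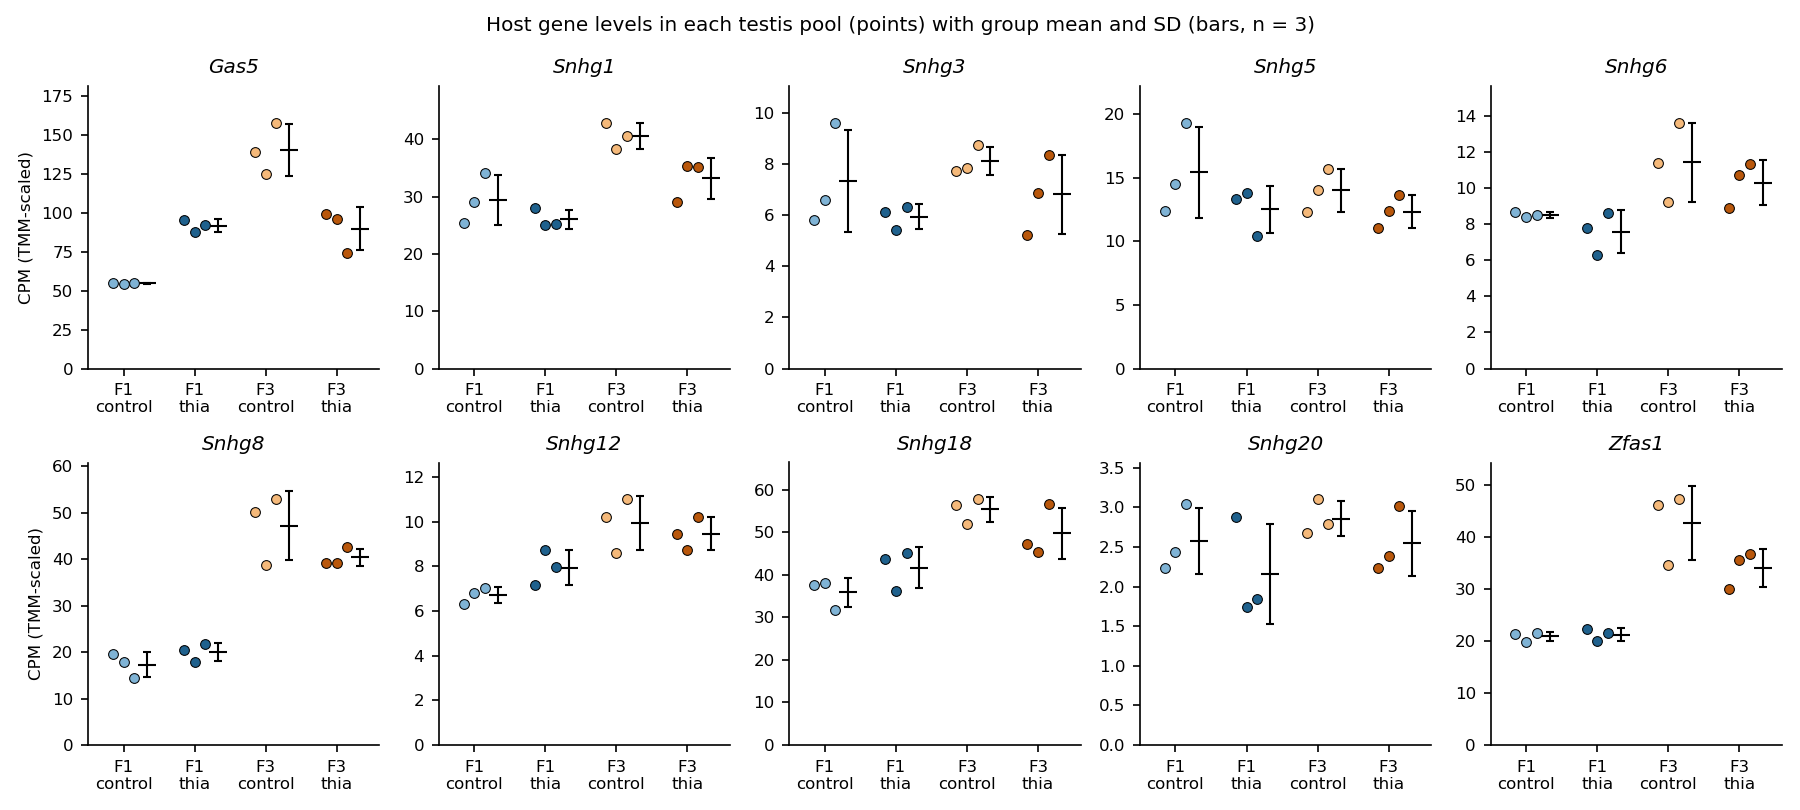
Levels of the 10 host genes in each of the 12 testis pools, in TMM-scaled CPM on a linear y axis that starts at 0, with points for pools and bars for the group mean and SD (n = 3). *Gas5* in F1 *thia* (87.6 to 95.6 CPM) lies above F1 control (54.5 to 55.0 CPM), and in F3 *thia* (74.1 to 99.6 CPM) below F3 control (125 to 158 CPM), while most other genes overlap between *thia* and control.

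Among the other hosts of C/D box snoRNAs, *Snhg1* and *Zfas1* were the most abundant per base of the RefSeq-matched transcript. *Snhg1* carries *Snord22*, which is known to be needed for processing of small-subunit ribosomal RNA, and stood at 25.4, 29.0 and 34.1 CPM in F1 control and 28.0, 25.0 and 25.2 CPM in F1 *thia*. In F3 it was at 42.9, 38.3 and 40.6 CPM in control and 29.1, 35.4 and 35.2 CPM in *thia*. The groups overlapped in F1 (log2 fold change −0.16, standard error 0.12), whereas in F3 every *thia* pool was below every control pool (−0.29, standard error 0.10).

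*Zfas1* is transcribed away from the start of *Znfx1*, whose gene it overlaps on the other strand. It had nearly the same level in all F1 pools, at 21.4, 19.9 and 21.5 CPM in control and 22.3, 20.0 and 21.5 CPM in *thia*. In F3, control was at 46.3, 34.6 and 47.3 CPM and *thia* at 30, 35.7 and 36.8 CPM. Control pool 2 was the low one in F3 and overlapped with *thia* (log2 fold change −0.32, standard error 0.15, against 0.04, standard error 0.099, in F1).

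*Snhg18*, which starts next to *Sema5a* and carries *Snord123*, was at 37.6, 38.1 and 31.8 CPM in F1 control and at 43.8, 36.2 and 45.0 CPM in F1 *thia*. In F3 it was at 56.3, 52.0 and 57.7 CPM in control and at 47.3, 45.3 and 56.5 CPM in *thia*. The groups overlapped in both generations (log2 fold change 0.23 in F1 and −0.16 in F3). *Snhg5* and *Snhg6* host *Snord50a*, *Snord50b* and *Snord87*. *Snhg5* ranged from 10.4 to 19.3 CPM over the 12 libraries and *Snhg6* from 6.27 to 13.6 CPM, with overlap between *thia* and control in both generations.

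Hosts of H/ACA box snoRNAs gave the same picture of overlap. The RefSeq-matched transcript of *Snhg8* is a single exon over *Snora24*, which lies inside an exon in 1 of the 3 annotated transcripts. *Snhg8* was at 19.6, 17.9 and 14.5 CPM in F1 control and 20.5, 17.9 and 21.8 CPM in F1 *thia*. In F3 it was at 50.1, 38.8 and 52.9 CPM in control and 39.3, 39.3 and 42.6 CPM in *thia*. Its large step was between generations, and *thia* and control overlapped in each (log2 fold change 0.23 and −0.23). *Snhg3* hosts *Snora73a* and *Snora73b* (U17), which act in ribosomal RNA cleavage, and ranged from 5.23 to 9.60 CPM.

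*Snhg12*, which hosts H/ACA box snoRNAs and the C/D box *Snord99*, was at 6.33, 6.79 and 7.04 CPM in F1 control and at 7.15, 8.73 and 7.96 CPM in F1 *thia*. It was the one gene besides *Gas5* whose F1 *thia* pools were all above control (log2 fold change 0.26, standard error 0.14), though the nearest pools differed by little. In F3 it was at 10.2, 8.60 and 11 CPM in control and 9.45, 8.75 and 10.2 CPM in *thia*, with overlap (−0.07, standard error 0.14). *Snhg20*, the host of a small Cajal body RNA, was the lowest, at 1.74 to 3.10 CPM.

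In F1, 5 of the 10 genes had a fitted fold change above 0, beside 52.0% of all genes, and 5 below, with *Zfas1* turning to −0.14 under scaling to the ribosomal protein counts, which moved the median of all genes to −0.17. 2 of the 10 had *thia* above control without overlap, against 6.55% of all genes. In F3 the fitted fold change was below 0 for all 10, although 7 of them (*Snhg3*, *Snhg5*, *Snhg6*, *Snhg8*, *Snhg12*, *Snhg18* and *Snhg20*) were above 0 when libraries were scaled to the summed ribosomal protein counts, which moved the median of all genes to 0.29, and *Snhg6* and *Snhg12* reached 0.01 and 0.02 without F3 control pool 3. Over all genes 49.4% were below 0, and 13.9% were below control without overlap, as 2 of the 10 (*Gas5* and *Snhg1*) were. The median log2 fold change of the 10 was −0.06 in F1 and −0.21 in F3, beside 0.01 and 0.00 for all genes tested.

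**Figure D3:**
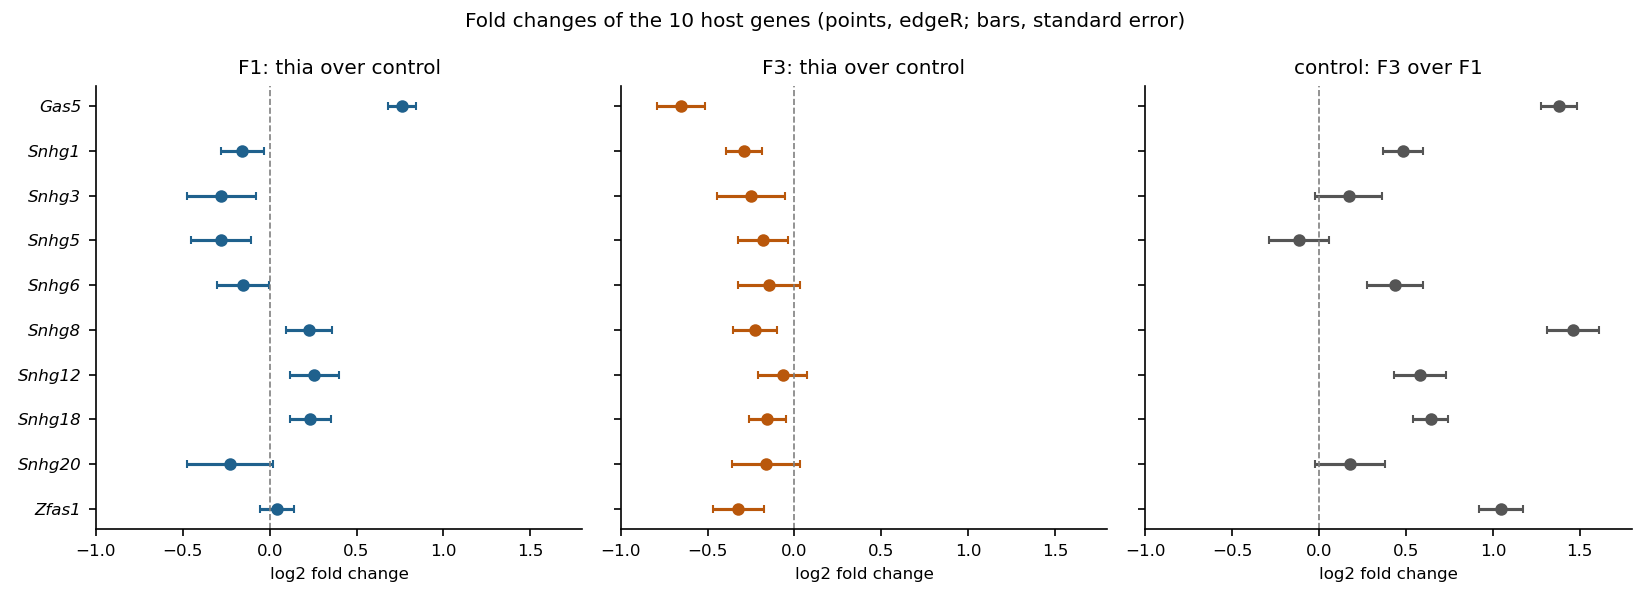
Log2 fold changes (x axis) of the 10 host genes with their standard errors, for *thia* over control in F1 (left), *thia* over control in F3 (middle) and F3 control over F1 control (right). *Gas5* is farthest from 0 in both *thia* comparisons, at 0.76 and −0.65, and in the control comparison *Snhg8* (1.46), *Gas5* (1.38) and *Zfas1* (1.05) are highest.

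Neither control group had *thia* in its ancestry, and they differ by generation. They also differ in handling, since mothers of F1 control embryos were gavaged with oil and mothers of F3 control embryos were not treated. For the genes other than *Gas5*, the F3 control libraries were compared with the F1 control libraries by the quasi-likelihood test of edgeR at an FDR of 0.1 with Benjamini-Hochberg adjustment over 18588 genes. *Snhg8* and *Zfas1* rose most, to 2.75 and 2.07 times the F1 control level. Their log2 fold changes were 1.46 (standard error 0.15, adjusted p = 0.000271, edgeR) and 1.05 (standard error 0.13, adjusted p = 0.000574, edgeR). *Gas5*, given without a test, was at 2.60 times the F1 control level (log2 fold change 1.38, standard error 0.10). None of the F3 control pools of these 3 genes overlapped with F1 control.

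Smaller rises passed the test for *Snhg18* (log2 fold change 0.64), *Snhg12* (0.58), *Snhg1* (0.48) and *Snhg6* (0.44), with adjusted p from edgeR of 0.00167, 0.0146, 0.0113 and 0.0603. Scaling to the ribosomal protein counts moved the median of all genes to −0.89 and with it these 4 to −0.23, −0.31, −0.42 and −0.44, below 0 but above that median. The call of *Snhg6* was lost without any 1 of 5 of the 6 control pools, with an adjusted p from edgeR of 0.103 to 0.214. *Snhg3* (0.17), *Snhg20* (0.18) and *Snhg5* (−0.12) did not pass, and *Snhg3* passed without F1 control pool 3 (0.40, adjusted p = 0.0865, edgeR).

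Of the 9 genes tested, 6 were called higher and 0 lower, beside 21.3% of all genes called higher and 43.2% called in either direction. The same 6 and *Gas5* were higher without overlap, against 23.6% of all genes. The median of the 10 was 0.53 and that of all genes −0.01. The generation cannot be told apart from the oil gavage of the F1 mothers. The same holds for any other difference between the occasions on which F1 and F3 embryos were collected, and for any batch that follows it. The sample titles name no sequencing run. The erythroid sums given above and those of the ribosomal protein genes were higher in F3 control as well, and their part in the rise was not tested. Skeletal muscle markers rose with them, 5 of 8 called higher, while 6 of 7 Sertoli cell markers were called lower, beside 21.9% of all genes called lower. Germ cell markers fell too, with 5 of 8 called lower in F3 control, at summed levels of 884 to 1231 CPM in F1 control and 559 to 884 CPM in F3 control.

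Levels of different genes were compared per kilobase of the RefSeq-matched transcript. In F1 control, *Snhg1* led with 48.7 ± 7.24 CPM per kilobase (SD, n = 3), followed by *Zfas1* (28.4 ± 1.24), *Snhg18* (24.1 ± 2.35), *Snhg8* (22.3 ± 3.37), *Gas5* (21.4 ± 0.0987) and *Snhg6* (21.3 ± 0.410). The pools of *Snhg18*, *Snhg8*, *Gas5* and *Snhg6* overlapped in this order, as did those of *Snhg3* (16.8 ± 4.57) and *Snhg5* (15.3 ± 3.55). *Snhg12* (11.1 ± 0.595) and *Snhg20* (4.28 ± 0.70) came last.

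In F3 control the order was *Snhg1* (67.1 ± 3.74), *Snhg8* (60.9 ± 9.64), *Zfas1* (57.9 ± 9.54) and *Gas5* (55.1 ± 6.44), and each neighbour in this order overlapped with the next. *Gas5* moved from the fifth place in F1 control to the second in F1 *thia* (35.9 ± 1.57 CPM per kilobase) and was the fourth in both F3 groups. Its place depends on the length used, because the RefSeq-matched transcript keeps introns. With the union of all annotated exons, *Gas5* was the third in F1 control at 14.6 CPM per kilobase and *Snhg18* the first at 24.1. The places of *Snhg1* and *Zfas1* depend on the length as well, and became 4 (9.93) and 8 (7.15).

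A ratio of counts within a library does not depend on how libraries are scaled. *Gas5* held 28.3, 27.5 and 26.9% of the summed counts of the 10 genes in F1 control pools and 38.6, 39.3 and 38.3% in F1 *thia* pools. In F3 the share was 36.8, 37.8 and 38.7% in control and 35.3, 32.8 and 25.4% in *thia*. The 2 groups were apart in each generation, and F3 control was near F1 *thia*.

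Relative to ribosomal protein genes, *Gas5* had 7.81 to 9.76 counts per 10000 ribosomal protein counts in F1 control, 12.1 to 13.8 in F1 *thia*, 11.1 to 14.0 in F3 control and 7.77 to 11.1 in F3 *thia*. The other 9 genes together had 19.8 to 26.5, 19.4 to 21.2, 19.0 to 22.1 and 19.6 to 22.8. Their summed ratio thus overlapped between all 4 groups. Their summed level did not, at 139 to 149 CPM in F1 control and 135 to 152 CPM in F1 *thia*, but 206 to 250 CPM in F3 control and 183 to 218 CPM in F3 *thia*, and the ribosomal protein sum was 56278 to 70401, 63703 to 76459, 108808 to 125502 and 89753 to 100128 CPM.

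Scaled to the ribosomal protein counts, *Gas5* was at 0.58, −0.36 and 0.50, with the same direction in all 3. Taken relative to the median gene it stayed close to its values under TMM.

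**Figure D4:**
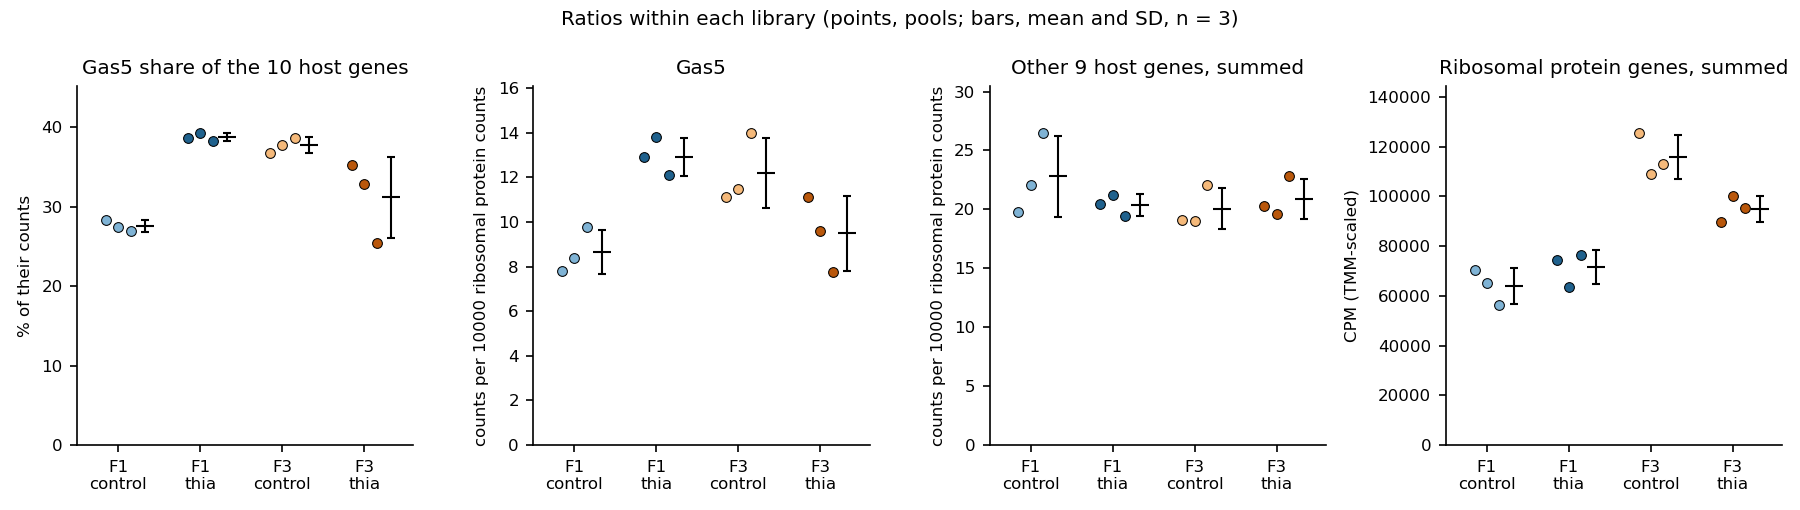
Within-library ratios in the 12 pools (points; bars, mean and SD, n = 3), namely the *Gas5* share of the counts of the 10 host genes in %, *Gas5* and the other 9 genes per 10000 ribosomal protein counts, and the ribosomal protein sum in CPM, all on linear axes from 0. The *Gas5* share is 26.9 to 28.3% in F1 control and 38.3 to 39.3% in F1 *thia*, whereas the ratio of the other 9 genes overlaps between all groups.

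The genes whose log2 CPM followed *Gas5* most closely over the 12 libraries were named by Pearson's r, as a description over 19625 genes. They were *Gyg* (glycogenin, r = 0.94), *Ddc* (aromatic amino acid decarboxylase, 0.92), *Gm34078* (0.91), *Slc6a17* (a vesicular amino acid transporter, 0.91) and *Has2os* (0.90). All share the libraries and their differences in depth and make-up with *Gas5*. *Gm34078* and *Has2os* were low, with group means of 0.365 to 0.945 and 0.126 to 0.562 CPM. *Ddc* went from 5.34 to 5.99 CPM in F1 control to 7.62 to 8.31 in F1 *thia*, and from 9.09 to 14.1 in F3 control to 5.74 to 10.7 in F3 *thia*. With group means removed, r was 0.91 for *Ddc*, 0.72 for *Gyg*, 0.71 for *Gm34078*, 0.48 for *Slc6a17* and 0.46 for *Has2os*.

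None of the other host genes was that close. The best was *Snhg18* (r = 0.78, place 570 of 19625), ahead of *Snhg8* (0.77), *Snhg12* (0.77), *Zfas1* (0.75) and *Snhg1* (0.56). *Snhg5* had r = −0.24. With group means removed, r with *Gas5* lay between −0.32 and 0.26 for the 9 genes.

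The libraries were not made for RNAs as short as snoRNAs, and rows of hosted snoRNAs held few counts. *Snord47*, inside *Gas5*, had 5, 14 and 12 counts in F1 control, 13, 3 and 4 in F1 *thia*, 3, 8 and 3 in F3 control and 3, 7 and 15 in F3 *thia*, with overlap everywhere. *Snord22*, inside *Snhg1*, had 22 to 100 counts per library and *Snora73b*, inside *Snhg3*, had 8 to 47, both with overlap between *thia* and control. *Snora73a*, also in *Snhg3*, was the one whose *thia* pools were below control in both generations (log2 fold change −0.60 in F1 and −0.59 in F3), and it missed the threshold in both (adjusted p = 0.592 and 0.315, edgeR).

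*Snora16a* (−1.19), *Snord123* (−0.69) and *Snord12* (−0.28) also passed the count filter in F1 and missed the threshold (adjusted p = 0.584, 0.663 and 0.849, edgeR). *Snora24* had 0 counts in all 12 libraries although its host *Snhg8* was well counted. These rows give no measure of mature snoRNAs.

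Several host genes start close to a coding gene on the other strand. The start of *Snhg1* is 106 bases from that of *Slc3a2*, the heavy chain of amino acid transporters, the start of *Snhg18* 148 bases from that of *Sema5a*, a transmembrane semaphorin, and the start of *Zfas1* 81 bases from that of *Znfx1*, a zinc finger helicase. In F3 these 3 neighbours were above control in every *thia* pool, whereas the host genes were not. *Znfx1* was at 28.4, 30.9 and 30.1 CPM in F3 control and 42.5, 37.9 and 39.2 CPM in F3 *thia* (log2 fold change 0.42, standard error 0.079), *Sema5a* at 81.1, 77.6 and 76.2 against 104, 92.9 and 107 CPM (0.37, standard error 0.077), and *Slc3a2* at 117, 124 and 116 against 160, 147 and 205 CPM (0.52, standard error 0.13).

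None of these 3 passed the FDR of 0.1, where 0 of 18539 genes did with edgeR, 3906 had an unadjusted p under 0.05 and DESeq2 called 2262 (adjusted p = 0.105, 0.105 and 0.11, edgeR). They were among 2044 genes that were higher at an unadjusted p under 0.05. In F1 the 3 neighbours had log2 fold changes of −0.05, 0.02 and 0.08 with overlap. Between the controls *Znfx1* fell in F3 (−0.65, adjusted p = 0.00138, edgeR) while *Zfas1* rose.

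*Gas5* overlaps *Zbtb37*, a zinc finger gene on the other strand with a start 427 bases away. *Zbtb37* was at 10.5, 11.2 and 14.1 CPM in F1 control and 12.9, 10.8 and 8.69 CPM in F1 *thia*. In F3 it was at 7.29, 7.60 and 6.48 CPM in control and 7.91, 8.32 and 6.83 CPM in *thia*. The groups overlapped in both generations (log2 fold change −0.12 and 0.11), and between the controls *Zbtb37* fell in F3 (−0.72, adjusted p = 0.00623, edgeR). How reads in the overlap of both strands were counted is not stated, so *Gas5* and *Zfas1* could hold reads of their partners or lose reads to them.

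*Rcc1*, the exchange factor of the Ran GTPase, overlaps *Snhg3* on the same strand. It was at 55.8, 52.2 and 53.3 CPM in F3 control and 46.9, 46.1 and 40.2 CPM in F3 *thia* (log2 fold change −0.28, adjusted p = 0.136, edgeR). Of the remaining neighbours, *Mcmdc2*, which overlaps *Snhg6*, was lower in all F1 *thia* pools (−0.64, adjusted p = 0.518, edgeR), and *Zfp949*, *Tcf24*, *Rab42* and *Sec14l1* overlapped between *thia* and control in both generations. *Gm35065*, nearest to *Snhg8*, was too low to be tested.

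Other noncoding host genes went in both directions. Of 12 in the files 11 were tested. In F1, 8 were below control and 3 above. With edgeR 0 passed the FDR of 0.15, where 0.0105% of all genes were called. DESeq2 called 1, beside 193 calls over all genes. At an unadjusted p under 0.05, 3 were lower (background 4.13%). These 3 were *Snhg14* (−0.88), *Snhg11* (−1.14) and *Snhg17* (−0.55). *Snhg14* had 2.53, 3.20 and 4.45 CPM in F1 control and 1.93, 2.06 and 1.48 CPM in F1 *thia*.

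The median of the list was −0.14 in F1 and −0.10 in F3. In F3 only *2410006H16Rik* was lower at an unadjusted p under 0.05 (−0.44, 105 to 135 CPM in control and 74.9 to 105 CPM in *thia*), and 0 were higher. Between the controls 4 of the 11 were called higher and 4 lower by edgeR, beside 21.3% and 21.9% of all genes. *2410006H16Rik* (1.54) and *Epb41l4aos* (1.04, adjusted p = 0.00565, edgeR) rose, and in F1 *thia* they had fold changes of 0.26 and 0.16 with overlap, while *Snhg14* (−0.99, adjusted p = 0.0159, edgeR) fell.

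Protein-coding host genes, many of which encode ribosomal proteins and translation factors, were nearly all below control in F3. All 41 in the files were tested, and 39 were below 0 in F3. Of these, 21 were lower at an unadjusted p under 0.05 (background 10.0%) and 22 without overlap (background 13.9%). With edgeR 0 passed the FDR of 0.1. DESeq2 called 9 lower and 1 higher, beside 2262 calls in either direction over all genes. The lowest p were those of *Eef1b2* (a translation elongation factor, −0.42), *Rpl17* (−0.42) and *Rpl3* (−0.33). In F1 29 of the 41 were above 0, with a median of 0.10. At an unadjusted p under 0.05, 1 was higher (*Rpsa*, 0.41, background 4.63%) and 1 lower (*Wdr43*, −0.24, background 4.13%). The F3 median of −0.21 equalled that of the 10 noncoding genes and became 0.07 under scaling to the ribosomal protein counts.

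The 80 ribosomal protein genes, some of which are also hosts, behaved alike. In F1 79 had a fold change above 0 (median 0.17), 2 of them (*Rpsa* and *Rpl10a*) at an unadjusted p under 0.05 (background 4.63% higher). In F3 76 were below 0 (median −0.24), 44 of them at an unadjusted p under 0.05 (background 10.0% lower) and 49 without overlap (background 13.9%). *Rpl9* went from 3867, 3389 and 3300 CPM in F3 control to 2332, 2617 and 2232 CPM in F3 *thia* (log2 fold change −0.56). With edgeR 0 of the 80 were called in either *thia* comparison. DESeq2 called 0 in F1 and 28 lower and 1 higher in F3, beside 193 and 2262 calls over all genes. Between the controls 77 were called higher in F3 control by edgeR (median 0.81), beside 21.3% of all genes.

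*Rpl21* stood far from the rest, at 1.84 in F3 and −2.22 between the controls, with levels between 14.0 and 157 CPM in no order by group. It was named after its values were seen. Such genes have many near-identical processed copies and their counts are uncertain. Besides *Gas5*, *Rpl10a* (0.22 in F1 and −0.21 in F3) and *Pax8*, a marker of the mesonephros (0.24 and −0.46), were the listed genes that lay above control in F1 and below it in F3 without overlap.

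**Figure D5:**
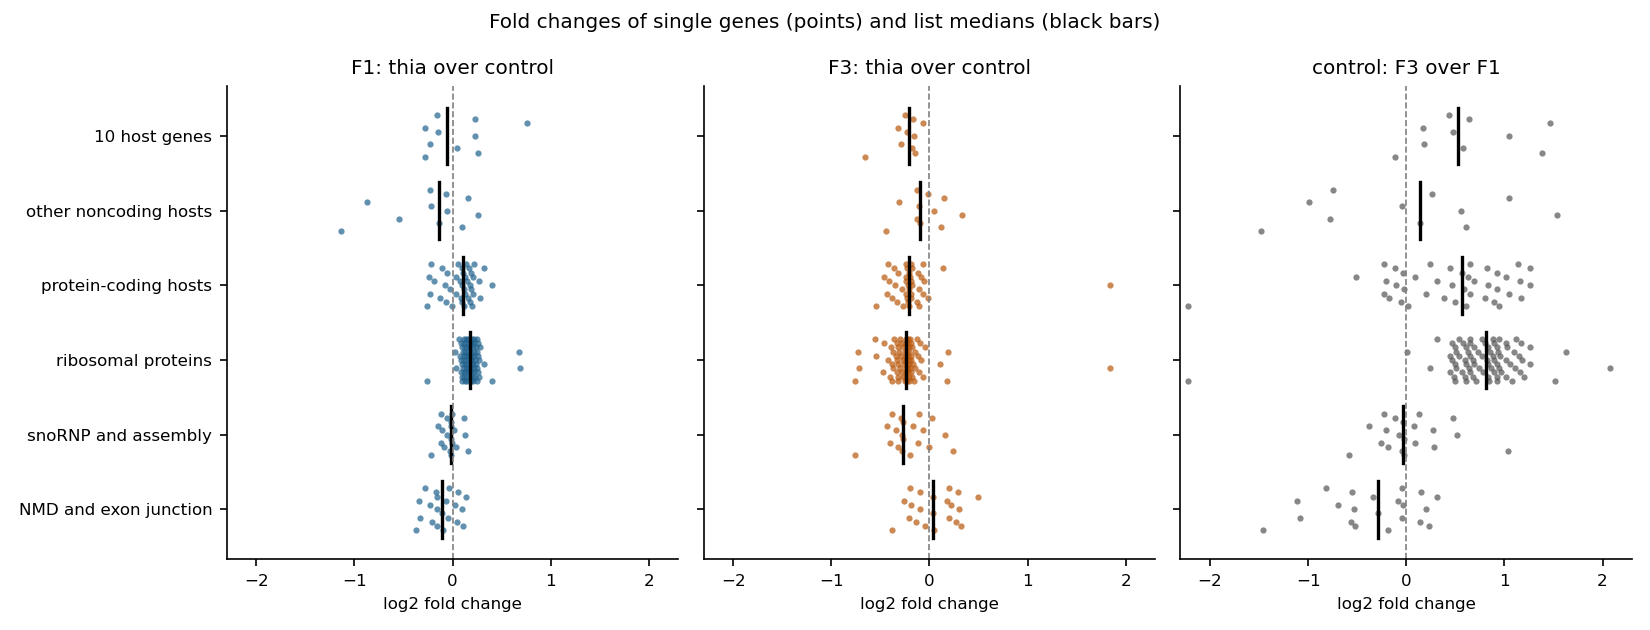
Log2 fold changes (x axis) of single genes (points) in 6 lists, with the list median as a black bar, for *thia* over control in F1, *thia* over control in F3 and F3 control over F1 control. Ribosomal protein genes sit above 0 in F1 (median 0.17), below 0 in F3 (median −0.24) and far above 0 between the controls (median 0.81), and the outlying point in both host and ribosomal lists is *Rpl21*.

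Proteins that bind or assemble snoRNAs were read from the same fits. The 20 genes had a median of −0.02 in F1, where none reached an unadjusted p under 0.05 and neither edgeR nor DESeq2 made a call. In F3 17 of the 20 were below 0 and 12 were lower at an unadjusted p under 0.05 (background 10.0%). There edgeR called 0 and DESeq2 called 7, beside 2262 DESeq2 calls in either direction over all genes. *Shq1*, an assembly factor of H/ACA particles, was at 45.8, 37.5 and 32.4 CPM in control and 29.0, 19.3 and 19.9 CPM in *thia* (−0.76). *Coil*, the coilin of Cajal bodies (−0.38), and *Pih1d1*, part of a chaperone complex for snoRNA particles (−0.29), followed. The median was −0.27, and 0.02 under scaling to the ribosomal protein counts.

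NMD degrades spliced *Gas5* RNA, so its factors were read as well. In F1 15 of 21 were below 0 (median −0.11) and 4 were lower at an unadjusted p under 0.05 (background 4.13%), among them *Upf2* (−0.37) and *Upf3b* (−0.35). *Upf2* was at 49.4, 62.2 and 69.4 CPM in F1 control and 47.8, 46.4 and 44.1 CPM in F1 *thia*. In F3 the median was 0.03, and 4 were higher (background 11%) and 5 lower (background 10.0%) at that p, the lowest p being those of *Magoh* (−0.38), *Rbm8a* (−0.21) and *Eif4a3* (−0.26) of the exon junction complex. None was called by edgeR in either generation. DESeq2 called 1 higher and 1 lower in F3, beside 2262 calls in either direction over all genes.

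Between the controls, where *Gas5* was higher in F3, 10 of the 21 factors were called lower and 1 higher by edgeR at the FDR of 0.1, beside 21.9% and 21.3% of all genes. The helicase *Upf1* fell from 64.7, 73.9 and 65.2 CPM in F1 control to 19.6, 29.9 and 23.9 CPM in F3 control (log2 fold change −1.46, adjusted p = 0.000246, edgeR). *Smg1*, the kinase of *Upf1* protein, fell too (−1.11, adjusted p = 0.000421, edgeR). Their part in the higher *Gas5* level was not tested.

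Targets of the glucocorticoid receptor, which *Gas5* RNA can bind, were read next. The 12 genes of that list, the receptor *Nr3c1* included, had medians of 0.12 in F1 and 0.16 in F3. At an unadjusted p under 0.05, *Nfkbia* (0.26) and *Cdkn1c* (0.40) were higher in F1 (background 4.63%). In F3 *Per1* (0.28) and *Fkbp5* (0.27) were higher at that p (background 11%), and 0 were lower in either generation. Of the list, edgeR called 0. DESeq2 called 1, in F3, beside 2262 calls in either direction over all genes. *Nfkbia* was at 32.1, 31.0 and 27.6 CPM in F1 control and 35.4, 35.8 and 36.4 CPM in F1 *thia*.

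Targets of the amino acid and stress response (24 genes) had medians of 0.05 in F1 and 0.06 in F3. In F1 *Asns*, asparagine synthetase, was higher (0.24) and *Stc2* lower (−0.52) at an unadjusted p under 0.05. In F3 *Slc7a5*, the amino acid transporter that pairs with *Slc3a2*, went from 131, 139 and 120 to 205, 192 and 265 CPM (0.77) and *Phgdh*, of serine synthesis, from 446, 320 and 333 to 250, 210 and 193 CPM (−0.75). With edgeR 0 of the list were called in either *thia* comparison (adjusted p = 0.105 for both in F3). DESeq2 called 2 higher and 1 lower in F3, beside 2262 calls in either direction over all genes.

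Genes of growth signalling (14) had medians of 0.01 in F1, with 0 at an unadjusted p under 0.05, and of 0.08 in F3, where 3 were higher (background 11%), among them *Rptor* (0.33) and *Larp1* (0.31), and 2 were lower (background 10.0%), among them *Rheb* (−0.25). *Rptor* and *Rheb* belong to the mTOR pathway, and *Larp1* is the protein that binds pyrimidine runs at the start of mRNAs. RNAs kept in the nucleus (6, with *Malat1* and *Meg3*) overlapped between *thia* and control in both generations. *Malat1* had 385 CPM in F1 *thia* pool 1 against 97.6 and 113 CPM in the other F1 *thia* pools, and *Gas5* was alike in these 3. Between the controls *Malat1* fell (−1.19, adjusted p = 0.00186, edgeR), opposite to *Gas5*.

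Markers of other cells moved with the *thia* groups in places. Of 8 germ cell markers 5 were lower in F1 *thia* at an unadjusted p under 0.05 (background 4.13%) and 1 was called by edgeR, at summed levels of 755 to 884 CPM against 884 to 1231 CPM in control. In F3 3 were lower at that p (background 10.0%), at 368 to 694 against 559 to 884 CPM. All 6 Leydig cell markers had a fitted fold change above 0 in F3, 3 of them at an unadjusted p under 0.05 (background 11%), at summed levels of 3970 to 7146 against 2294 to 3764 CPM. Skeletal muscle markers were above control for 8 of 8 in F1 (median 1.69), 3 at an unadjusted p under 0.05 (background 4.63%) and 0 without overlap. In F3 6 of the 8 were below control (median −0.55), with 2 lower (background 10.0%) and 1 higher (background 11%) at that p. No marker of the germ, Leydig, Sertoli, erythroid or muscle lists was at 0 in any library. Summed markers of mesonephros were at 40.6 to 60.0 CPM and those of ovary at 92.7 to 150 CPM over the 12 libraries. The summed level of the 5 adrenal markers was apart in both generations, at 42.8 to 58.3 CPM in F1 control and 26.0 to 37.8 CPM in F1 *thia*, then 33.5 to 49.6 CPM in F3 control and 52.3 to 112 CPM in F3 *thia*. Taken singly, 3 were apart below control (background 8.45%) and 1 above it (background 6.55%) in F1. In F3 0 were apart, with 3 fitted above control and 2 below. Of these 5, edgeR called 0 in F1 and DESeq2 called 2 lower, beside 193 DESeq2 calls in either direction over all genes. Erythroid sums, mostly of adult globins, overlapped between *thia* and control in both generations. The embryonic globins did not overlap in F3, where *Hbb-y* went from 330, 117 and 354 CPM in control to 42.1, 50.6 and 45.5 CPM in *thia* (log2 fold change −2.54, adjusted p = 0.101, edgeR) and *Hba-x* from 97, 50.5 and 84.0 to 19.9, 31.3 and 23.2 CPM (−1.64, adjusted p = 0.102, edgeR). Both were called by DESeq2 and were named after their values were seen. The part of these cells in the *Gas5* differences was not tested.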

How the data were processed

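Libraries were directional and read from both ends, and the authors aligned the reads with HISAT2 2.1.0 (per the labels) to mm10, then used featureCounts and refGene models. Each deposited file holds the unnormalized counts of 1 library by gene symbol. Whether pairs or reads were counted, and the strand and overlap options, are not given in the sources used here. No row lacked a gene name.

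Counts were analysed with edgeR 4.0.16 (quasi-likelihood test, filterByExpr at a minimum count of 10, TMM, Benjamini-Hochberg adjustment over all genes tested) in R 4.3.3, at an FDR of 0.15 in F1 and 0.1 elsewhere. DESeq2 1.42.0 was an alternative. Standard errors came from the fold change and the F statistic. Log2 CPM used a prior count of 2. The fits were checked on simulated counts with 200 genes changed by a log2 fold of 1. Of these, 76% were called in F1, 60.5% in F3, 73.5% between the controls and 47.5% for the difference between generations. Unchanged genes made up 20.4, 16, 13.5 and 8.65% of the calls, above the set FDR in the first 3 comparisons. No pair of libraries held identical counts.

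The 10 genes and all lists were chosen with earlier results of these data known. Named are the 10 genes, their snoRNA rows and neighbours, the 3 genes of lowest p per list and comparison (1 gene is not reported here) and the 5 genes most like *Gas5*. With 3 pools against 3, an exact permutation test cannot give a two-sided p below 0.1. Alternatives are named in the closing section, and scaling to the summed ribosomal protein counts was added after seeing the data.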

Additional observations from a re-analysis of the deposited data

Results flagged for a closer look

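*Gas5* was the one of the 10 genes whose *thia* pools were all above control in F1 (log2 fold change 0.76) and all below control in F3 (−0.65). The fit over all genes included the difference between the 2 generations. *Gas5* had been listed for this pattern, so its value in that fit is a description and no evidence. The levels by pool are 54.5 to 55.0 CPM in F1 control, 87.6 to 95.6 in F1 *thia*, 125 to 158 in F3 control and 74.1 to 99.6 in F3 *thia*.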

How the results depend on the processing

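Over 13 alternatives other than ribosomal scaling *Gas5* kept its direction, with log2 fold changes of 0.73 to 0.79 in F1, −0.74 to −0.53 in F3 and 1.28 to 1.46 between the controls, and over 18 its difference between generations was −1.47 to −1.27. Excluding the ribosomal scaling, the sign held in every alternative for 10 of the 10 genes in F1, 8 in F3 and 9 between the controls. The exceptions were *Snhg6* and *Snhg12* without F3 control pool 3 and *Snhg5* without F1 control pool 3 (0.07). Scaling to ribosomal protein counts gave *Gas5* 0.58, −0.36, 0.50 and, for the difference, −0.94. It reversed *Snhg1* (−0.42), *Snhg6* (−0.44), *Snhg12* (−0.31) and *Snhg18* (−0.23) between the controls, and its median shift over all genes is given in the report. The number of genes called in F1 was 2 with edgeR, 243 without the low-count filter, 193 with DESeq2, 0 when the 12 libraries shared a fit (1789 at an unadjusted p under 0.05) and 0 to 20 with 1 library left out (20 without F1 control pool 1, 0 without F1 control pool 2 with 1480 at that p, 1 without F1 *thia* pool 1 or 3). In F3 it was 0 (3906 at an unadjusted p under 0.05), 520 with upper quartile scaling, 569 without the filter, 333 with at least 10 counts in every library, 2262 with DESeq2, 1936 in one fit of 12 libraries, 4496 with ribosomal scaling and 0 to 1294 with 1 library left out, the highest without F3 *thia* pool 2. Between the controls it was 8030, 6386 to 7737 with 1 left out and 15163 with ribosomal scaling. For the difference between generations it was 1, 638 with DESeq2, 5020 with ribosomal scaling and 0 to 4 with 1 left out (4 without F3 *thia* pool 2, 0 without F1 *thia* pool 1, F3 control pool 1 or any F1 control pool). The cause of these changes was not tested. With the replicate number as a block the counts were 3, 0 (3429 at an unadjusted p under 0.05), 7697 and 0 (2245 at that p), and deviations of same-numbered pools correlated at −0.37 to 0.20, so the numbers do not pair the pools. At these depths all 10 genes are well counted, whereas snoRNA rows of 0 to 100 counts are not.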
